A study of Mus musculus with 6 samples.

Results

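Axon guidance ligands and their receptors were compared between synaptic polyribosomes and synaptic total RNA. Genes were taken by name from the deposited count table: semaphorins, plexins, neuropilins, Eph receptors, ephrins, Slits, Robos, and the netrin receptors Unc5 and Dcc. The names matched 67 of 21958 protein-coding genes, namely 20 semaphorins, 9 plexins, 2 neuropilins, 14 Eph receptors, 8 ephrins, 3 Slits, 4 Robos, 6 names beginning with Unc5, and Dcc. Of these, Unc50 and Unc5cl matched by name but are not netrin receptors, which left 65 guidance genes, 31 ligands and 34 receptors.

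The libraries came from synaptoneurosomes, a filtered brain fraction rich in pinched-off pre- and postsynaptic endings, prepared from the hippocampus and adjacent cortex of FVB mice of 6 to 8 weeks. Of the 6 libraries, 3 held unstimulated total RNA (below, total) and 3 held NMDA polyribosomes (below, polyribosomes). For the second group the endings were exposed to 50 µM NMDA and 10 µM glutamate for 30 sec, 120 µM APV, an NMDA receptor blocker, was then added, and light and heavy polyribosome fractions were pooled after 20 min. In the paper, unstimulated samples stayed on ice with cycloheximide, an inhibitor of protein synthesis, whereas stimulated samples were warmed and incubated. Stimulation, this handling and the fraction changed together, so their effects cannot be told apart. Tissue of several mice went into each preparation. Counts per library ranged from 1044955 (total replicate 3) to 3738022 in total and from 5294482 to 7361580 in polyribosomes, so low genes were measured least precisely in total replicate 3. Excitatory neuron markers were detected in every library, with a summed level of 8002 to 11080 CPM (counts scaled to the size of the library after TMM normalization) in total and 8149 to 10670 CPM in polyribosomes.

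Guidance cues are proteins that steer growing axons by attracting or repelling the growth cone, and many of them remain present at mature synapses. Semaphorins signal through plexins, the secreted class 3 members with neuropilins as co-receptors. Ephrins are membrane-bound ligands of the Eph receptor tyrosine kinases, Slits are secreted ligands of Robo receptors, and netrins bind Dcc and the Unc5 receptors. Several of these receptors act on the actin cytoskeleton.

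Most guidance genes had a modestly higher share of the counts on polyribosomes. Of the 67 genes, 64 passed the filter on low counts, and Epha1, Efna4 and Unc5cl, each with a mean under 1 CPM in both groups, did not. Exons of 16 members overlap those of another gene in GENCODE vM21, on the same strand for Nrp1, Plxnc1 and Sema4a and on the opposite strand for Efna3, Efna4, Epha1, Epha6, Epha10, Ephb1, Ephb4, Plxna1, Plxna4, Plxnb1, Sema4c, Unc5a and Unc5c, and the counts of these genes are less certain. Among the 64, the log2 fold change of polyribosomes over total was positive for 52 and negative for 12, with a median of 0.24. The same median was 0.15, 0.21 and 0.31 in the 3 same-numbered library pairs (SD 0.080, n = 3 pairs). Over all 12255 genes tested the median was 0.00097, and 50.1% of the changes were positive. All 3 pairs pointed higher for 35 of the 64 members and lower for 8, against 30.2% and 30.6% of all genes. Together the 67 genes took 0.631% to 0.735% of the counts in total and 0.734% to 0.775% in polyribosomes, so the groups overlapped by a narrow margin. When libraries were scaled to their total counts only, the median of all genes moved to -0.11 and that of the members was 0.13.

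No single member passed an adjusted p under 0.01 in the comparison without pairing. The edgeR quasi-likelihood test called 0 members higher and 0 lower, where 0.71% and 2.36% of all genes were called, while DESeq2 called 2 members higher (Sema6b and Plxnb1) against 2.48% of the genes it tested. At an unadjusted p under 0.05, edgeR had 19 members higher and 0 lower, against 15.4% and 17.1% of all genes. At an adjusted p under 0.05 it had 6 higher, Sema6b, Plxnb1, Sema4b, Unc5b, Unc5a and Sema7a, against 6.52% of all genes. Without any test, the 3 polyribosome libraries all lay above the 3 total libraries for 24 of the 64 members and all below for 5, against 17.4% and 18.9% of all genes.

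Same-numbered libraries came from aliquots of one preparation, and with the replicate number as a block 16 members passed an adjusted p under 0.01 as higher and 0 as lower, against 11.8% and 13.2% of all genes. They were 7 semaphorins (Sema4a, Sema4b, Sema4c, Sema4g, Sema5b, Sema6b, Sema7a), Plxnb1 and Plxnb2, Efnb1 and Efnb3, Ephb6, Slit1 and Slit3, and Unc5a and Unc5b. Leaving out 1 preparation in the blocked comparison gave 6 members higher without replicate 1, 3 without replicate 2 and 17 without replicate 3. Shares of all genes called in these reduced fits are not given here. Scaling by total counts only left 9 of the 16. Transcript GC content and length moved with the fold changes, and when each library was corrected for both by an offset, with the block kept, 3 of the 16 still passed, beside 7 other members as higher and 1 as lower. Values with block and offset are therefore given for some of the genes that it moved, not for all. Both the ligands and the receptors were represented. Ligands had a median log2 fold change of 0.36, with 27 of 30 positive and 11 passing with the block. Receptors had a median of 0.12, with 24 of 33 positive and 5 passing with the block. With block and offset, 4 ligands passed as higher (median 0.29). Of the receptors, 6 passed as higher and 1 as lower (median 0.17), against 8.75% and 7.2% of all genes.

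**Figure D1:**
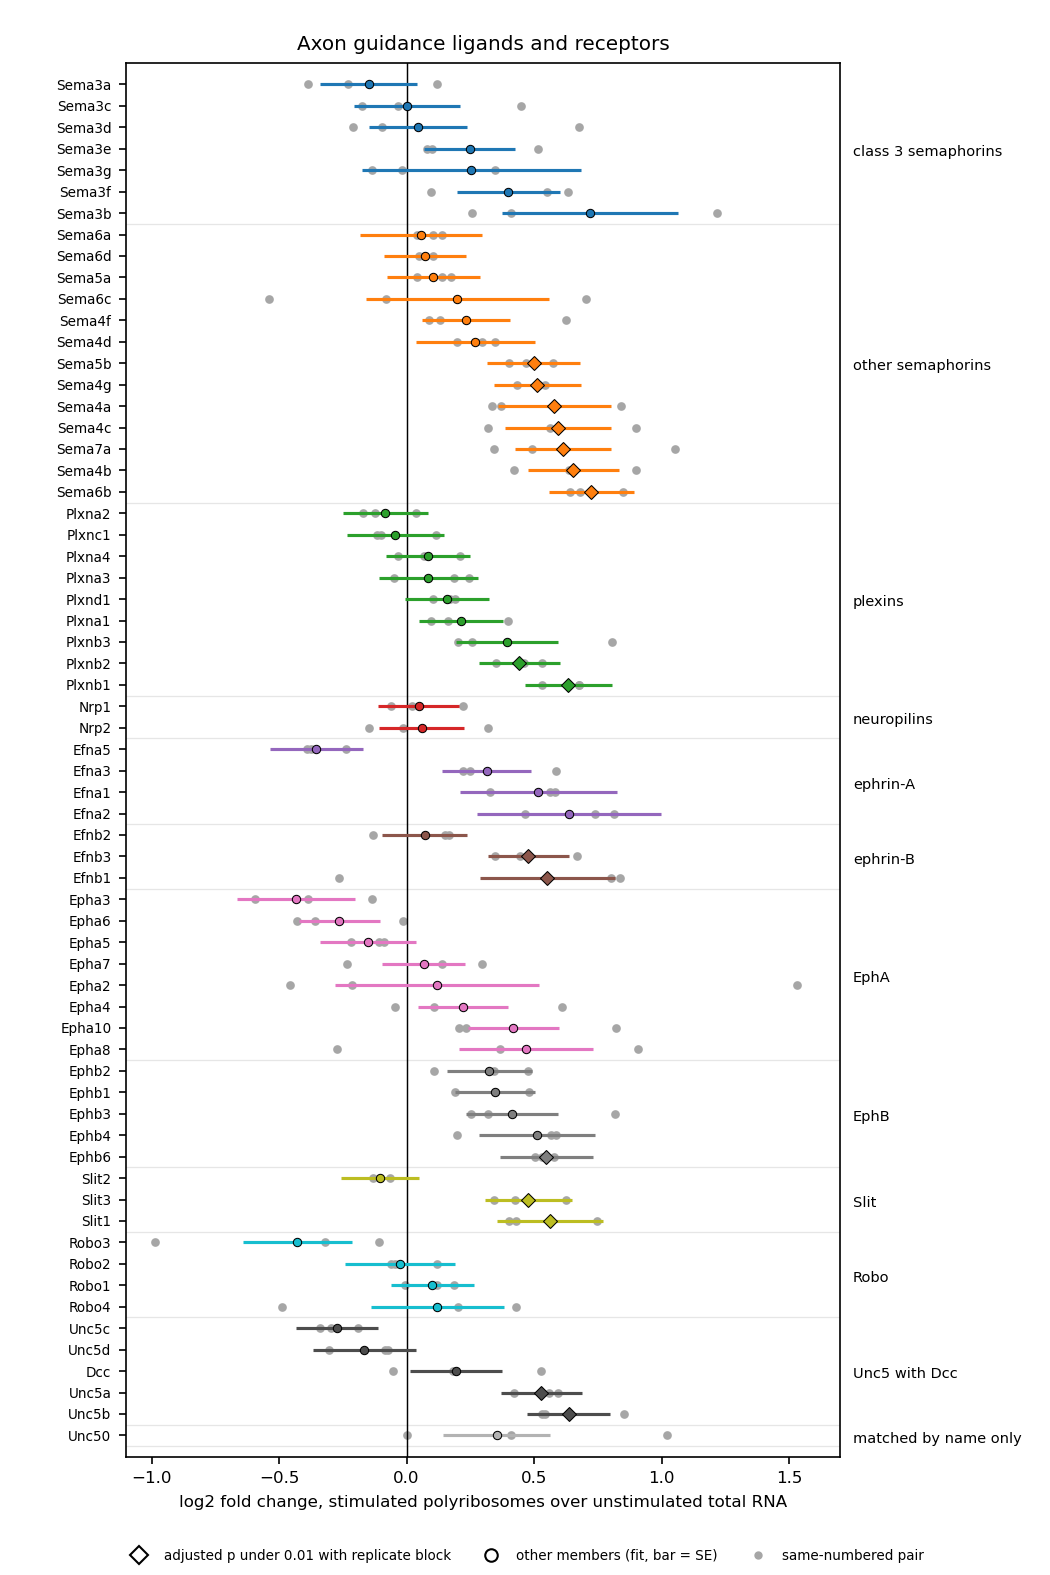
Log2 fold change of polyribosomes over total for the 64 guidance genes that passed the count filter, ordered by subfamily on the y axis. Large symbols are edgeR estimates without the block with their standard error, diamonds mark the 16 genes with an adjusted p under 0.01 when the replicate was a block, and grey points are the 3 same-numbered pairs. Most symbols lie to the right of 0, and the diamonds are spread over the non-class-3 semaphorins, plexin-B, ephrin-B, EphB, Slit and Unc5 genes.

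Among the ligands, the semaphorins outside class 3 lay on one side of 0 without the offset. These are membrane-bound cues, and the log2 fold changes of all 13 were above 0 (median 0.50). With the block 7 of them passed as higher, where 11.8% of all genes did. With block and offset, 12 of the 13 were positive (median 0.29) and 2 passed as higher, against 8.75% of all genes. Sema6b (chr17:56123085-56140343 on GRCm38, minus strand), a transmembrane semaphorin that binds plexin-A receptors, was at 144.5, 174 and 185 CPM in the total replicates and at 260.4, 279.6 and 289 CPM in the polyribosome replicates. The groups were fully apart, and the log2 fold change of 0.72 (SE 0.17) was the highest of all members, with an adjusted p of 0.0139 without the block and 1.23e-06 with it (edgeR). Without pairing, DESeq2 called it at an adjusted p of 0.0015, and edgeR did so when the filter on low counts was dropped. With block and offset, Sema6b came to 0.31 (adjusted p 0.038) and was no longer the highest, Sema3e being at 0.62.

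Sema4b, of the class 4 semaphorins, was at 42.0, 54.6 and 46.0 CPM in total and at 65.6, 73.2 and 86.3 CPM in polyribosomes. Sema7a, the GPI-anchored semaphorin, was at 154, 207 and 141 CPM in total and at 217, 262 and 293 CPM in polyribosomes. Both genes had polyribosome libraries that all exceeded the total libraries, although Sema7a only narrowly. Their log2 fold changes were 0.65 (SE 0.18, adjusted p 0.0273 without the block and 8.5e-05 with it) and 0.61 (SE 0.19, adjusted p 0.0419 and 7.9e-05). Class 4 as a whole, ligands that include partners of plexin-B, had a median of 0.55 over 6 genes, from 0.23 for Sema4f to 0.65 for Sema4b. Sema4a, Sema4c, Sema4g and Sema5b passed with the block at log2 fold changes of 0.50 to 0.60. Without polyribosome replicate 3, Sema4a came to 0.29, and Sema4c ranged from 0.36 without total replicate 1 to 0.82 without total replicate 2. At the other end stood Sema6a, which had a log2 fold change of 0.06 (SE 0.24) that fell to -0.04 under scaling by total counts.

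The secreted class 3 semaphorins did not pass without or with the block, whereas Sema3d and Sema3e passed with block and offset (adjusted p 0.0048 and 2.1e-05). Their 7 genes had a median log2 fold change of 0.25, and their pair medians were -0.02, 0.08 and 0.45. Sema3e, the most abundant of them per transcript length at 10.6 CPM per kb in total, was at 67.1, 77.7 and 72.9 CPM in total and at 72.0, 82.1 and 104 CPM in polyribosomes, with overlapping groups. Sema3b had the highest estimate, 0.72 (SE 0.35, adjusted p 0.16), at only 2.48 to 6.71 CPM in total and 6.36 to 9.06 CPM in polyribosomes. Sema3a, a repellent of cortical axons, had the lowest, -0.15 (SE 0.19). Summed counts of class 4 over class 3 within a library were 1.32, 1.35 and 1.34 in total and 1.77, 1.65 and 1.59 in polyribosomes, a ratio that needs no scaling between libraries. This pair of classes was set side by side after the values were seen, and a ratio of counts is not corrected for base composition. With block and offset the order of the classes turned, with a median of 0.37 for class 3 and 0.31 for class 4, against 0.05 and 0.50 with the block alone.

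The plexins, receptors of the semaphorins, were split by class. The 3 plexin-B genes had a median log2 fold change of 0.44 and the 4 plexin-A genes of 0.08, or 0.32 and 0.14 with block and offset. Plxnb1 (chr9:109095389-109119917, plus strand), the receptor of Sema4d, was at 408, 389.5 and 448 CPM in total and at 652, 564 and 715 CPM in polyribosomes. No polyribosome library came near the range of total, and the log2 fold change was 0.63 (SE 0.17, adjusted p 0.0255 without the block and 2.2e-05 with it). Plxnb2 was at 179, 160 and 153 CPM in total and at 229, 221.0 and 222 CPM in polyribosomes, with a log2 fold change of 0.44 (SE 0.16, adjusted p 0.070 and 0.0029). Plxnb3 had 0.39 (SE 0.20) and missed the threshold with the block at an adjusted p of 0.0115. Plxna2 had the lowest value of the family, -0.08 (SE 0.17), and its 6 libraries overlapped. Plxnb1 was also the most abundant plexin per length, at 48.0 CPM per kb in total and 74.4 in polyribosomes.

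Within each library, plexin-B counts were 0.54, 0.53 and 0.56 of plexin-A counts in total and 0.81, 0.66 and 0.83 in polyribosomes. The ratio was higher in polyribosomes in each of the 3 pairs, by 1.5-fold, 1.25-fold and 1.48-fold. This grouping was also made after the values were seen, and the ratio is not corrected for base composition. The neuropilins, the co-receptors of class 3 semaphorins, were nearly level between groups. Nrp1 was at 142, 135 and 116 CPM in total and at 136, 137 and 135.5 CPM in polyribosomes, and Nrp2 had a similarly small log2 fold change of 0.06 (SE 0.17). Under scaling by total counts both turned negative, to -0.06 for Nrp1 and -0.05 for Nrp2.

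**Figure D2:**
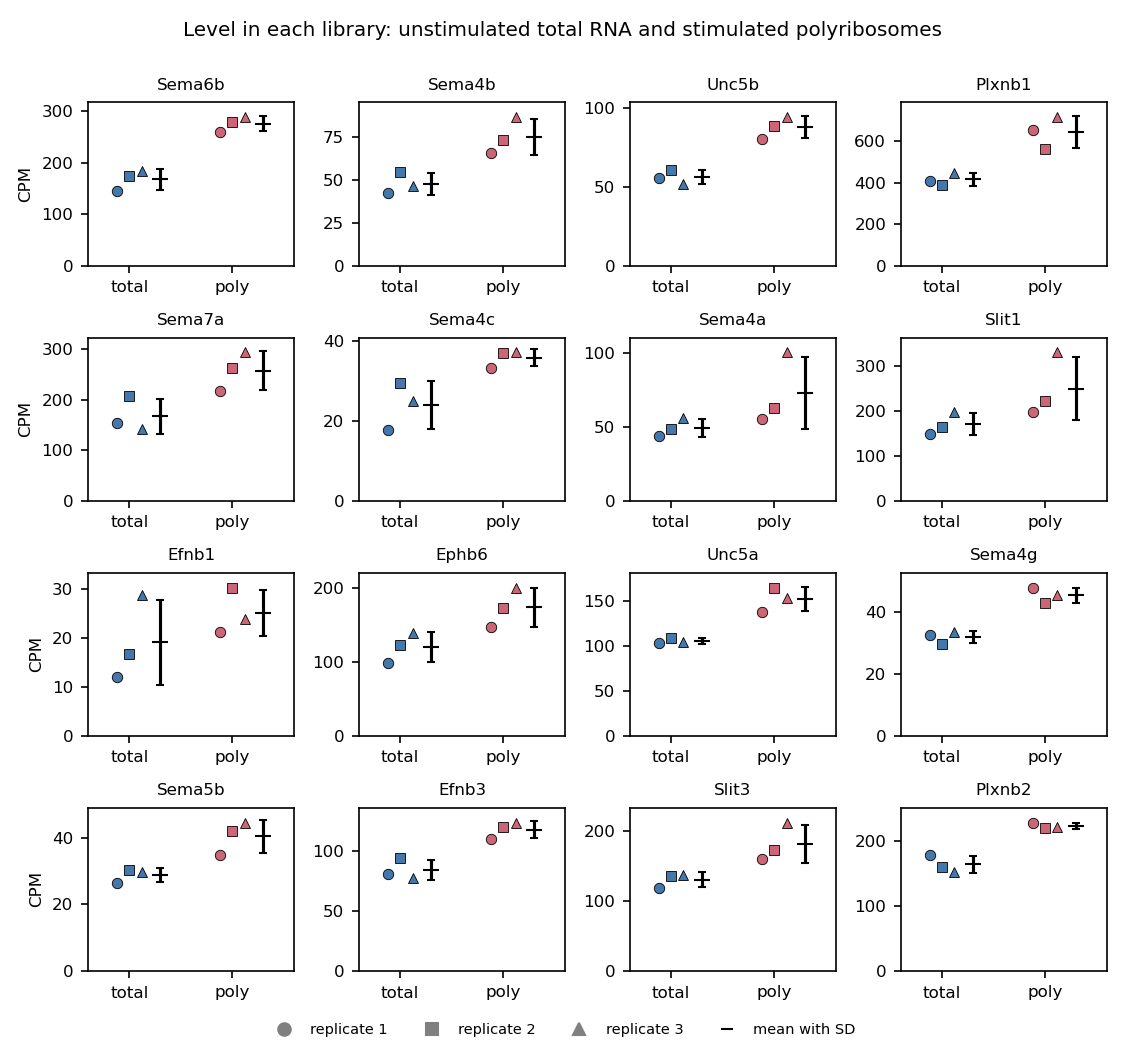
Level in each library, in CPM on a linear axis from 0, of the 16 guidance genes that passed with the replicate as a block (adjusted p under 0.01). Symbols stand for replicates 1, 2 and 3, and the bars beside them give the mean and SD of each group (n = 3). Sema6b, Plxnb1 and Unc5b show groups fully apart, whereas Efnb1 has total replicate 3 at 28.8 CPM, above 2 of the 3 polyribosome libraries.

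The Eph receptors also differed by class, by less with block and offset. The 5 EphB receptors were all on the positive side, from 0.32 for Ephb2 to 0.55 for Ephb6, with a median of 0.41. The 8 EphA receptors tested had a median of 0.09, with 5 positive. With block and offset the medians were 0.22 for EphB (5 of 5 positive) and 0.08 for EphA (5 of 8 positive). Ephb6, a receptor without kinase activity, was the most abundant EphB gene per length and was at 99.1, 122.6 and 139 CPM in total and at 148, 174 and 201 CPM in polyribosomes. Every polyribosome library exceeded every total library, and Ephb6 passed with the block (log2 fold change 0.55, SE 0.18, adjusted p 0.055 without the block and 0.00028 with it). Among the EphA receptors none passed without the offset, and with block and offset Epha4 and Epha7 did while no EphB receptor did. Epha4, which binds ephrins of both classes and was the most abundant of all 67 genes per length at 90.6 CPM per kb in total, was at 604, 624 and 492 CPM in total and at 585.5, 672 and 752 CPM in polyribosomes. These groups overlapped, with a log2 fold change of 0.22 (SE 0.18). Epha3 had the lowest value of all members, -0.43 (SE 0.23, adjusted p 0.21 without the block and 0.043 with it), and with block and offset it came to -0.0012 (adjusted p 0.997). Epha8 had the highest value of its class, 0.47 (SE 0.26), at means of 8.21 and 10.4 CPM.

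Summed EphB counts were 0.234, 0.258 and 0.322 of EphA counts in total and 0.359, 0.325 and 0.339 in polyribosomes. The polyribosome libraries were all higher, narrowly so in the pair of replicate 3, where the difference was 1.05-fold. On the ligand side, ephrin-B over ephrin-A was 2.03, 2.00 and 2.51 in total and 2.55, 2.48 and 2.49 in polyribosomes, so the groups overlapped and the pair of replicate 3 fell slightly, to 0.991-fold.

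Of the ephrins, Efnb3 and Efnb1, transmembrane ligands, passed with the block. Efnb3 was at 81.0, 94.1 and 77.7 CPM in total and at 110.5, 120 and 124 CPM in polyribosomes, without overlap, with a log2 fold change of 0.48 (SE 0.16, adjusted p 0.056 and 0.0018). Efnb1 was at 11.9, 16.8 and 28.8 CPM in total and at 21.1, 30.3 and 23.9 CPM in polyribosomes, and the pair of replicate 3 pointed lower. Its log2 fold change was 0.55 (SE 0.26, adjusted p 0.16 and 0.0066), and 0.23 without total replicate 1 or 0.82 without total replicate 3. Efnb2 had 0.07 (SE 0.17), and -0.03 under scaling by total counts. The GPI-anchored ephrin-A genes had both directions. Efna5, a repellent cue of topographic maps, was at 36.3, 44.2 and 34.5 CPM in total and at 27.6, 34.0 and 29.2 CPM in polyribosomes. It was one of the 5 members whose polyribosome libraries all lay below total, with a log2 fold change of -0.35 (SE 0.18, adjusted p 0.19 without the block and 0.047 with it), and -0.09 (adjusted p 0.67) with block and offset. Efna3, the most abundant ephrin-A gene per length, had 0.31 (SE 0.17), and Efna2 had 0.64 (SE 0.36) at 1.92 to 4.35 CPM in total.

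The Slit ligands diverged within a family of 3, encoded at chr19:41600257-41743665 (Slit1, minus strand), chr5:47983138-48307733 (Slit2, plus strand) and chr11:35121224-35708507 (Slit3, plus strand). Slit1 was at 148, 165 and 197 CPM in total and at 196, 222 and 330 CPM in polyribosomes. Slit3 was at 118.5, 136 and 137 CPM in total and at 159, 172 and 212 CPM in polyribosomes. Slit2 was at 124, 119 and 114 CPM in total and at 113, 113 and 106 CPM in polyribosomes. Slit3 was fully apart upwards, Slit1 higher in each pair but with polyribosome replicate 1 just under total replicate 3, and Slit2 fully apart downwards, by a small amount. The log2 fold changes were 0.56 for Slit1 (SE 0.21, adjusted p 0.075 without the block and 0.00048 with it), 0.48 for Slit3 (SE 0.17, adjusted p 0.070 and 0.0021) and -0.10 for Slit2 (SE 0.15, adjusted p 0.69 and 0.57). Without polyribosome replicate 3 the value of Slit1 was 0.32. Within each library, the counts of Slit1 and Slit3 together were 2.16, 2.53 and 2.92 times those of Slit2 in total and 3.15, 3.48 and 5.10 times in polyribosomes, a grouping made after the values were seen.

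The Slit paralogues also differ in the bases of their transcripts. Slit2 has a GC content of 48.7% over its transcript and 50.7% at the third codon position, against 59.2% and 73.0% for Slit1 and 56.8% and 72.7% for Slit3. The stretch below, 30 codons in which 27 residues are the same in all 3 proteins, shows how nearly the same protein sequence is spelled with different codons. Capitals mark G or C at the third position of a codon, which make up 73.3%, 60.0% and 80.0% of the codons of Slit1, Slit2 and Slit3. The sequences are coding strand, 5′ to 3′, from GENCODE vM21 transcripts on GRCm38, and each lies within 1 coding exon: Slit1 at chr19:41639710-41639799 on the minus strand (exon 14 of 37), Slit2 at chr5:48219984-48220073 on the plus strand (exon 15 of 39) and Slit3 at chr11:35612340-35612429 on the plus strand (exon 14 of 36).
Slit1: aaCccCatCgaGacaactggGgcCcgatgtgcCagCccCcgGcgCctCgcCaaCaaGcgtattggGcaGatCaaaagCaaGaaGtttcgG
Slit2: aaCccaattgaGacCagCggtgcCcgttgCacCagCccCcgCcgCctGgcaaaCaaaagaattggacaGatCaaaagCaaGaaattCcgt
Slit3: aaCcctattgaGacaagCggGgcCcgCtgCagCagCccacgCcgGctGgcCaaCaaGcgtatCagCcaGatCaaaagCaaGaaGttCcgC

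The Robo receptors of the Slits were near 0 as a family. Their 4 genes had a median log2 fold change of 0.04, or -0.06 under scaling by total counts, and none passed without the offset. With block and offset, Robo2 passed as higher at 0.40 (adjusted p 0.0062) and Robo3 as lower at -0.62 (adjusted p 0.0043). Robo2, the most abundant per length, was at 241, 236 and 144 CPM in total and at 231, 228 and 156 CPM in polyribosomes, with overlapping groups. Robo3, known for its part in midline crossing, was at 20.4, 17.1 and 22.1 CPM in total and at 16.2, 15.8 and 10.9 CPM in polyribosomes. Its polyribosome libraries all lay below total, with a log2 fold change of -0.43 (SE 0.21, adjusted p 0.18 without the block and 0.094 with it). Robo4, the Robo of endothelial cells, had 0.12 (SE 0.26), and -0.02 under scaling by total counts with the block.

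The netrin receptors differed in direction, and only Unc5a and Unc5b passed with the block. Unc5b lies at chr10:60762610-60831581 on the minus strand and Unc5c at chr3:141465216-141834924 on the plus strand. Unc5b was at 55.4, 60.6 and 51.8 CPM in total and at 80.2, 88.6 and 93.9 CPM in polyribosomes. Unc5a was at 103, 109 and 104 CPM in total and at 138, 164.5 and 153 CPM in polyribosomes. Both were fully apart, with log2 fold changes of 0.64 (SE 0.16, adjusted p 0.0210 without the block and 7.0e-05 with it) and 0.53 (SE 0.16, adjusted p 0.0379 and 0.00046). Unc5c, the most abundant of the family per length in total at 35.8 CPM per kb, was at 134, 148 and 136 CPM in total and at 106, 130 and 111 CPM in polyribosomes. It was fully apart in the other direction at a log2 fold change of -0.27 (SE 0.16, adjusted p 0.26 without the block and 0.071 with it), which did not pass. Unc5d had -0.17 (SE 0.20) and Dcc 0.19 (SE 0.18), both with overlapping groups. Unc5a and Unc5b together had 0.651, 0.598 and 0.692 of the counts of Unc5c and Unc5d in total, and 1.12, 0.984 and 1.27 times as many in polyribosomes. The ratio was higher by 1.72-fold, 1.65-fold and 1.83-fold in the 3 pairs, again for a grouping made after the values were seen. With block and offset the division did not hold, since Unc5a came to 0.13 (adjusted p 0.44) and Unc5d turned to 0.22, while Unc5b was at 0.41 and Unc5c at -0.17. The coding gene Hk3 is the one that overlaps Unc5a.

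The same difference in bases was found among the Unc5 genes, with GC contents of 62.7% for Unc5a and 58.7% for Unc5b against 49.4% for Unc5c and 44.3% for Unc5d. In the homologous stretch below, 24 of 30 residues are shared by all 4 proteins. Capitals again mark G or C at the third codon position, in 76.7%, 56.7%, 56.7% and 50.0% of the codons of Unc5a, Unc5b, Unc5c and Unc5d, so Unc5b and Unc5c do not differ in this window although they do over the whole coding sequence (74.8% and 57.0%). All lie in coding exon 6 on GRCm38: Unc5a at chr13:54997231-54997320 on the plus strand, Unc5b at chr10:60778208-60778297 on the minus strand, Unc5c at chr3:141768482-141768571 on the plus strand and Unc5d at chr8:28760765-28760854 on the minus strand.
Unc5a: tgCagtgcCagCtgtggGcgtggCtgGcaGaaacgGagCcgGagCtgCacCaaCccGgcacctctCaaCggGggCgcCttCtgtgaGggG
Unc5b: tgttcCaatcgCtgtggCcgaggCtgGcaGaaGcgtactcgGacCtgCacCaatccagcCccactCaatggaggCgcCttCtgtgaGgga
Unc5c: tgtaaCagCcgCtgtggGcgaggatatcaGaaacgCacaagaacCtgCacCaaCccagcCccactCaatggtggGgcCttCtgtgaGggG
Unc5d: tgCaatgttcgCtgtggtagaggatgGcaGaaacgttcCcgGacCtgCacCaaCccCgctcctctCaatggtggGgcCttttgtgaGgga

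**Figure D3:**
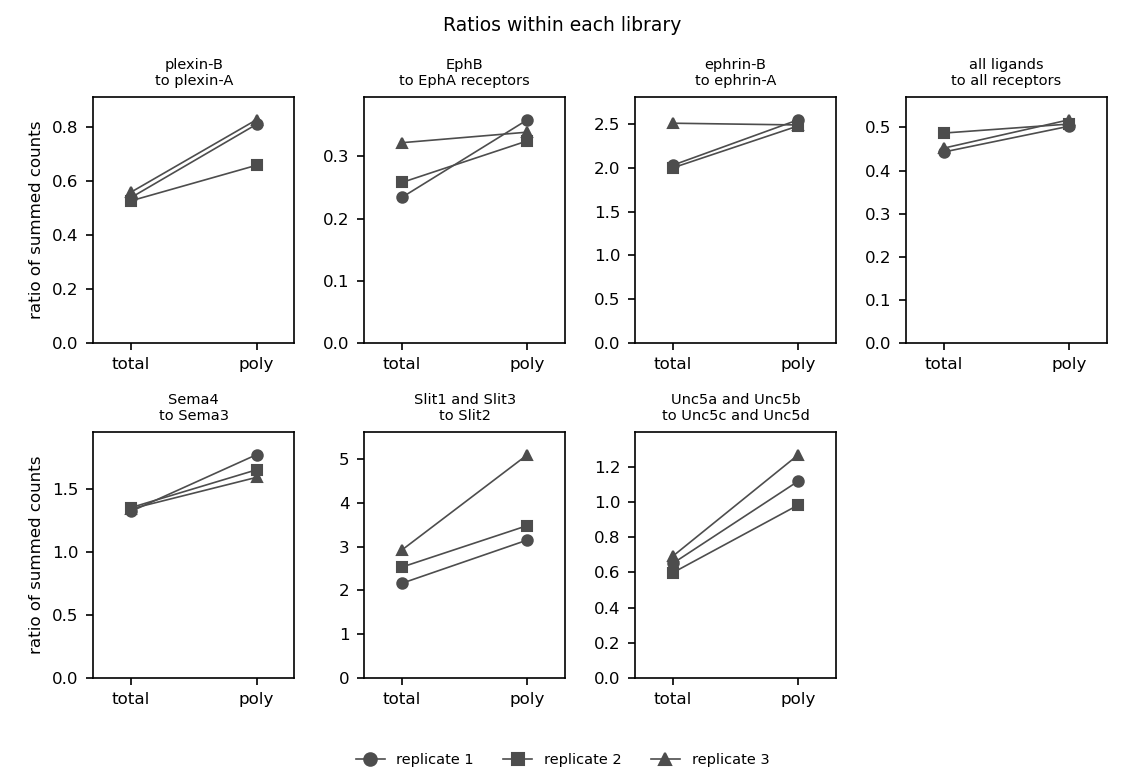
Ratio of summed counts within each library, on linear axes from 0, in total and in polyribosomes (poly), with lines joining same-numbered libraries, for all 7 ratios computed. All lines run upward except that of replicate 3 for ephrin-B over ephrin-A (2.51 to 2.49), and the plexin, Sema4 to Sema3, Slit and Unc5 groupings were made after values were seen.

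Across the whole set, the log2 fold change varied with base composition. Over the 64 members, the Spearman correlation of the log2 fold change with transcript GC content was 0.69, and over 12203 genes with a known transcript it was 0.53. These points share the same 6 libraries and are a description across genes, which are not independent replicates. Of the 22 members below 50% GC, 11 were positive, and their median was -0.01 (all genes in this range -0.24). None of them passed with the block, where 3.45% of all genes in this range passed as higher. Of the 35 members at or above 55% GC, 34 were positive, their median was 0.48 (all genes 0.32), and all 16 members that passed with the block were among them, where 25.6% of all genes in this range passed as higher. Longer transcripts had lower values, with a Spearman correlation of -0.45 with transcript length over the members. With block and offset, the correlations over the members were -0.23 with GC content and 0.23 with length. Over all genes they were 0.0012 and -0.01.

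Correcting each library for transcript GC content and length by an offset, together with the block, exchanged most of the called genes. It called 10 members higher and 1 lower, against 8.75% and 7.2% of all genes. Only Plxnb1, Sema4b and Unc5b were shared with the 16 of the blocked comparison without the offset. Their log2 fold changes with the offset were 0.53, 0.45 and 0.41, with adjusted p of 0.00024, 0.0038 and 0.0075. The other 7 were low-GC genes: Sema3d, Sema3e, Sema5a, Epha4, Epha7, Robo2 and Dcc. Sema3e had 0.62 and Dcc 0.60 with the offset, against 0.20 and 0.21 with the block alone. Robo3 was the 1 called lower, at -0.62 (adjusted p 0.0043). Slit1 and Slit3 dropped to 0.29 and 0.31 and no longer passed, and Slit2 turned to 0.11. The median of the members was 0.24 with the offset and 0.22 with the block alone, against 0.012 and 0.0046 for all genes.

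**Figure D4:**
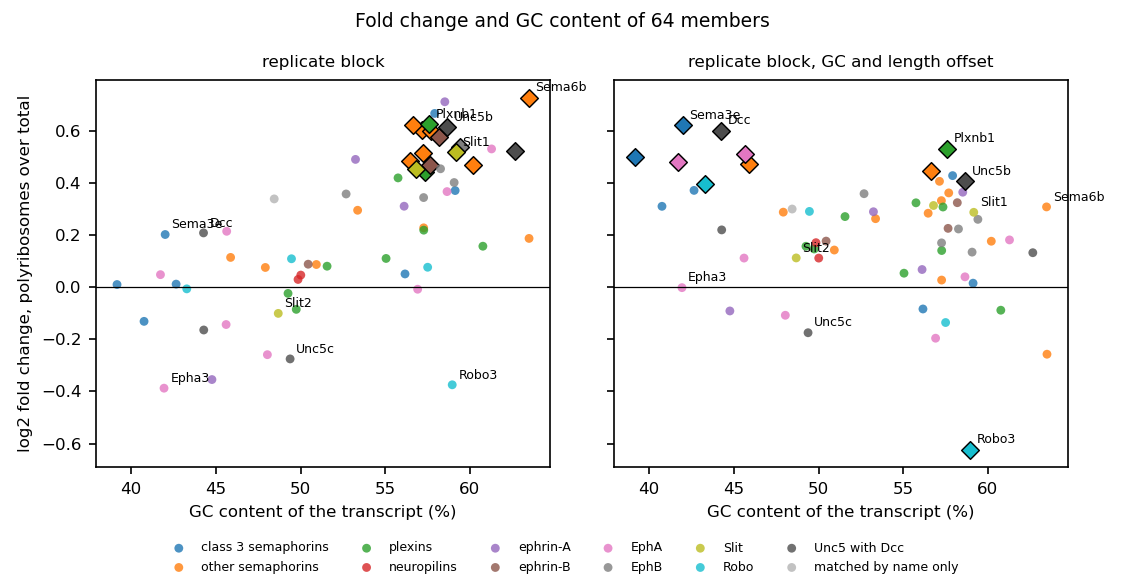
Log2 fold change of polyribosomes over total with the replicate block (left) and with the block and the offset for GC and length (right), against the GC content of the transcript in percent, for the 64 members. Colours give subfamilies and diamonds an adjusted p under 0.01. On the left the 16 diamonds all lie above 55% GC, and on the right the 10 higher diamonds include 7 genes below 50% GC, with Robo3 alone as the lower one.

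Markers of other cells also had higher values on polyribosomes. All 10 astrocyte markers had positive log2 fold changes, with a median of 0.59, and their summed level was 32580 to 37180 CPM in total and 41330 to 43770 CPM in polyribosomes. Oligodendrocyte markers had a median of 0.30 (9 of 10 positive, 8196 to 11620 CPM in total and 11350 to 15470 in polyribosomes), microglia markers 0.36 (10 of 10 positive, 666 to 942 CPM and 1033 to 1203 CPM), oligodendrocyte precursor markers 0.28 (3 of 5 positive, 588 to 756 CPM and 847 to 877 CPM) and endothelial markers 0.24 (8 of 10 positive, 399 to 414 CPM and 372 to 651 CPM). Inhibitory neuron markers had 0.48 (5 of 7 positive, 453 to 711 CPM and 586 to 1127 CPM) and excitatory neuron markers -0.20 (3 of 8 positive). Of 4 nuclear RNAs listed, 1 was among the genes counted, at 489 to 538 CPM in total and 105 to 124 CPM in polyribosomes. Its log2 fold change was -2.16, and it passed as lower without the block, with it, and with block and offset. No marker was at 0. Their part in the values of the guidance genes was not tested. Same-numbered libraries came from aliquots of the same preparation, and bulk RNA does not show which cell type a guidance transcript came from.

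Other genes of the guidance pathways had no common direction. A list of 77 further cues, adhesion co-receptors and intracellular effectors, of which 76 were in the table (77 rows, since Mical3 occurs under 2 identifiers), had a median log2 fold change of -0.06 with 35 positive. Without the block, 0 passed as higher and 1 as lower, and with the block 7 of 77 passed in each direction, a share below the 11.8% and 13.2% of all genes. Rock2, a kinase that acts on the actin cytoskeleton, was at 149.5, 129 and 138 CPM in total and at 87.9, 82.9 and 56.2 CPM in polyribosomes. It fell by 0.87 on the log2 scale (SE 0.19, adjusted p 0.0099 without the block and 1.6e-08 with it), and it did not pass without the block when any 1 library was left out. Rasa1, a Ras GTPase-activating protein, fell by 0.65 (SE 0.20, adjusted p 0.040 without the block and 0.0012 with it). With block and offset, Rock2 came to -0.40 (adjusted p 0.0054) and Rasa1 to -0.23 (adjusted p 0.26), which did not pass. Rgma, a ligand of the Dcc relative neogenin, was at 77.7, 98.5 and 111 CPM in total and at 162, 142.5 and 160.4 CPM in polyribosomes. It was higher by 0.71 (SE 0.17, adjusted p 0.0183 and 2.5e-06), fully apart, and the adhesion molecule Cntn2 was higher by 0.58 (SE 0.25, adjusted p 0.12 and 0.00015), with overlapping groups. With the block and the offset, 9 of 77 passed as higher and 7 as lower, against 8.75% and 7.2% of all genes.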

How the data were processed

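The authors isolated total RNA or pooled polyribosome fractions, depleted ribosomal RNA, mapped reads with STAR 2.5.2b to GRCm38 (mm10) and deposited whole-number counts per gene on Gencode vM6, without normalization. Whether the counting used strand is not given in the sources used here. The deposited table also holds the authors' DESeq2 comparison (mean normalized signal, log2 fold change, its standard error, Wald score, p-value and adjusted p-value), which was not used.

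Counts of all 21958 genes were analysed with edgeR 4.0.16 (R 4.3.3): TMM normalization, filterByExpr (12255 genes kept), the quasi-likelihood test on group alone, and Benjamini-Hochberg adjustment over all genes kept at 0.01, the study's threshold. CPM are TMM-scaled. Pair values are differences of log2 CPM (prior count 2). The alternatives were the replicate number as a block, DESeq2 1.42.0, other scaling and filters, leaving out libraries, and a per-library offset for transcript GC and length (GENCODE vM21, longest coding transcript, splines with 4 df, 99.6% of genes matched). Blocked scaling and left-out pairs were added after seeing the data. Same-numbered libraries are aliquots of one preparation, and across genes their departures from the mean of their group had correlations of 0.37, 0.26 and 0.38, which is why they were treated as pairs. Replicates differed by more than sampling noise. The script was tested on simulated counts.

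The members and lists were chosen with earlier results of these data known. Named genes were those passing at 0.01 with or without the block, the highest, lowest and most abundant per length of each subfamily, and 4 pathway genes. Others were named after their values were seen. Coding stretches were read from GENCODE vM21 on GRCm38, aligned with Biopython 1.88.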

Additional observations from a re-analysis of the deposited data

How the results depend on the processing

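Median log2 fold changes of the members stayed positive under every alternative run, from 0.1149 (block with total counts) and 0.1277 (total counts only) upward. Against 0 members called higher, DESeq2 gave 2, no filter 1, an adjusted p under 0.05 gave 6 and 21 with the block, the replicate block 16, with the GC and length offset 10, with RLE size factors 17 and with total counts 9, and the blocked comparison without 1 replicate number 3 to 17. Against 0 called lower, the block with the offset gave 1 and the block at 0.05 gave 2. The other pathway genes (0 higher, 1 lower) came to 1 higher with DESeq2, with no filter and at 0.05, and to 0 lower with RLE, with the offset alone or without any 1 library, and 4 lower at 0.05. With the block they came to 7 higher and 7 lower (also with RLE), 9 and 7 with the offset, 4 and 12 with total counts, 10 and 11 at 0.05, and 1 to 7 higher and 1 to 9 lower without 1 replicate number. The cause of these differences was not tested, and shares of all genes called under the scaling and left-out settings are not given here. Without Unc50 and Unc5cl the 16 blocked calls were the same, and the block changed the call of no other member.

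Directions turned for the named genes below, most of them near 0. The offset turned 11 of the 64 members against the block alone, among them Unc5d, Epha5 and Plxnc1 to positive and Sema6c, Sema3g and Plxnd1 to negative. With total counts, without and with the block, Efnb2 came to -0.031 and -0.012, Nrp1 to -0.060 and -0.054, Nrp2 to -0.053 and -0.071, and Sema6a to -0.044 and -0.013, and Robo4 with the block to -0.024. With the offset, without and with the block, Plxna2 came to 0.145 and 0.147, Robo2 to 0.38 and 0.40, Robo4 to -0.11 and -0.14, Sema3a to 0.310 and 0.311, and Slit2 to 0.1135 and 0.113. Leaving out 1 library without the block gave ranges of -0.025 to 0.10 for Nrp1, -0.058 to 0.15 for Nrp2, -0.22 to 0.14 for Robo2, -0.0030 to 0.35 for Robo4 and -0.14 to 0.27 for Sema6a. Leaving out 1 replicate number with the block turned Nrp1 to -0.030 and Nrp2 to -0.092 (without 3), Robo2 to 0.013 and 0.026 (without 1 and 2) and Robo4 to -0.24 (without 1).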
